A study of Mus musculus with 3 samples.

Results

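Olfr1507 to Olfr1513 are the 7 odorant receptor genes of the cluster on mouse chromosome 14 that lies beside the H element. They were chosen by name, as the rows of the authors' table of named promoter positions that carry these names, and make up 7 of its 1085 positions. Each name had 1 position. The study mapped the 5′ ends of olfactory receptor transcripts in the mouse olfactory epithelium, the nasal sheet of cells in which odours are sensed. The method was RLM-RACE, which removes the cap of an mRNA and joins an RNA adaptor to the end that the cap had protected. Complementary DNA was primed with degenerate primers against receptor coding sequence, so the product reaches from the cap into the coding exon, and its fragments were labelled and read on tiling arrays. The groups were 2, with 3 arrays between them. The 1 Stringent array carried a product of nested PCR and the 2 High Coverage arrays carried products of PCR without nesting. All samples came from C57/Bl6 adults aged 6 to 8 weeks, each a pool of the epithelia of 5 mice, with no allele or treatment given in the labels. The headers name the hybridised input female for High Coverage 1 and male for High Coverage 2, so sex and the spread between these arrays cannot be told apart. With 1 array against 2, no test with arrays as units was run, and the spread given below is that of the 2 High Coverage arrays.

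Odorant receptors are G protein-coupled receptors of the olfactory sensory neurons, and each neuron expresses very few genes of the family. The H element is a conserved enhancer beside this cluster, past its Olfr1507 end, and its deletion in mice is known to abolish expression of the receptors closest to it. A receptor gene typically has 1 or more short noncoding 5′ exons, an intron, and a coding exon without introns, so a cap-selected product should give separate blocks of signal along the gene. The genes outside the receptor family that mark the olfactory epithelium were not analysed here.

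The members fall into 2 subfamilies by their RefSeq synonyms, and the subfamilies lie side by side. Olfr1507 (Mor28), Olfr1508 (Mor10) and Olfr1509 (Mor83) carry MOR244 names, and Olfr1510, Olfr1511, Olfr1512 and Olfr1513 carry MOR223 names. On build mm9 the positions run from 52975886 to 53115454 on chromosome 14, a span of 139568 bp. In the order from the end nearest the H element, Olfr1507 lies at 53115454, Olfr1508 at 53088342, Olfr1509 at 53063220, Olfr1510 at 53033946, Olfr1511 at 53016404, Olfr1512 at 52998604 and Olfr1513 at 52975886. Olfr1509 is on the plus strand and the other 6 are on the minus strand. The gaps between neighbouring positions ranged from 17542 to 29274 bp, so the windows from 1 kb upstream to 10 kb downstream did not overlap.

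For 5 of the 7 members RefSeq gives the sequence at the start of the gene record, on build GRCm38.p6. The 3 printed here are the member whose record spans an intron, Olfr1508, and the 2 members in which a motif was found, Olfr1510 and Olfr1511. Each is the 250 bases before the record's start, written 5′ to 3′ on the gene's strand, all minus, with capitals for a TATA box (TATAAA) or a homeodomain core (TAATTA), on either strand.
Olfr1508, chr14:52467462-52467711: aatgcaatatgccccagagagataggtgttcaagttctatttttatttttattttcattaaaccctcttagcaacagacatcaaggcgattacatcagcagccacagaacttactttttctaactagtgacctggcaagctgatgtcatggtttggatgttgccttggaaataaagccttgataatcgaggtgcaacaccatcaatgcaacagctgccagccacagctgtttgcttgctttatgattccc
Olfr1510, chr14:52410928-52411177: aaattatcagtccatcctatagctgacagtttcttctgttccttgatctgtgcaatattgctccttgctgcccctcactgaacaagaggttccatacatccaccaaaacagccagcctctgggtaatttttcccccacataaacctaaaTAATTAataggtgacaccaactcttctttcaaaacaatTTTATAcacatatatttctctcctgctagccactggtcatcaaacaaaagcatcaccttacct
Olfr1511, chr14:52390772-52391021: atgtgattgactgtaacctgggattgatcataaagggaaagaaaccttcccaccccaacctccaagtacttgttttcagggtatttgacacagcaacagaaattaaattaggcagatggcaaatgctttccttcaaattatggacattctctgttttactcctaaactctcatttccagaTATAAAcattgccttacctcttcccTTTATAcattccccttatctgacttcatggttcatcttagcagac

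These windows are not shown to be the mapped promoters, because the array positions are on another build. Spacing within each build also sets them apart from the named positions. The windows of Olfr1510 and Olfr1511 abut their records at 52410928 and 52390772. Those bases are spaced much like the near edges of the main downstream blocks described below, at 53030570 and 53010439. The named positions, 53033946 and 53016404, lie closer together. The marked motifs can therefore not be assigned to the mapped 5′ ends. The RefSeq records of Olfr1512 and Olfr1513 span 942 bp each, that of Olfr1511 spans 957 bp, that of Olfr1509 1010 bp and that of Olfr1510 1039 bp. All 5 are shorter than the distance from the named position to the main downstream block of signal described below. This does not place the block outside the record, since the records are not shown to start at the named positions. The windows of Olfr1509 and Olfr1513 abut their records at 52450392 and 52350045. Their blocks have near edges at 53069986 and 52969728, which continues the spacing seen for Olfr1510 and Olfr1511. By this spacing the records of Olfr1509, Olfr1510, Olfr1511 and Olfr1513 start close to the near edge of the block, not at the named position. Only the records of Olfr1508 (4741 bp) and Olfr1507 (5761 bp) are longer than the distance from the named position to the block. These 2 records are not shown to start at the named positions either. The motif searches covered both strands of the 5 matched windows. TATAAA was found in 2 of 5, against 39.2% of 948 receptor windows and 12.4% of all 32851 windows of this length. TAATTA was found in 1 of 5, against 18.0% of receptor windows and 4.84% of all. TAATTG, a second homeodomain core, and CCCNNGGG, the core of a site for Ebf, a family of transcription factors of olfactory neurons, were in none of the 5. The receptor windows held these at 22.6% and 2.74%, and all windows at 7.17% and 11.8%. The A and T content was 49.2% before Olfr1513, 58.8% before Olfr1508, 60.0% before Olfr1510, 61.2% before Olfr1511 and 68.0% before Olfr1509, against a median of 66.0% over receptor windows and 47.6% over all windows.

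The values are MAT scores. MAT predicts how bright a probe should be from its bases, standardises what is left and pools neighbouring probes, so the score is relative to the array's own probes. Where 3 values follow one another, they are those of Stringent, High Coverage 1 and High Coverage 2, in that order. Scores are therefore ordered within an array, and the percentile among the 2188086 scored probes of an array is given where arrays are set side by side. A score is no amount of transcript: it is the highest value in a window of fixed length. The authors' regions were called per array at score thresholds of 2.52 on Stringent and 2.53 and 2.99 on the High Coverage arrays. The lists hold 3608, 7266 and 6311 regions, so counts of regions are not at a like cutoff. The number of arrays limits the precision. Scored probes covered between 52.7% and 78.6% of the 50 bp bins of each member's window, and untiled stretches give no value.

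The clearest contrast among the members was in the block of signal downstream of the position. On every array the 3 MOR244 receptors nearest the H element had a higher maximum between 1 and 10 kb downstream than any of the 4 MOR223 receptors, although a called region lay there for all 7 members on all 3 arrays. Over all named positions such a region lay downstream of 88.4% on Stringent. The share was 95.5% on High Coverage 1, 92.4% on High Coverage 2 and 83.1% on all 3 arrays together. Its presence is therefore near the background, and what varied was its score.

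**Figure D1:**
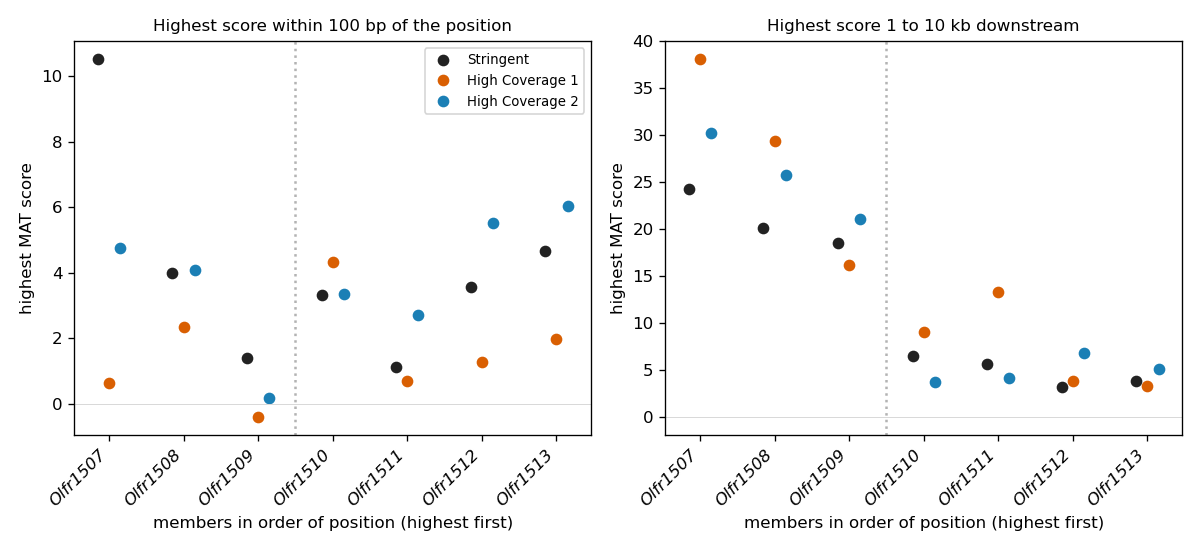
The highest MAT score of each member on each of the 3 arrays, within 100 bp of the named position (left) and from 1 to 10 kb downstream (right), with members in order of position and a dotted line between the subfamilies; each point is 1 array. Downstream, Olfr1507, Olfr1508 and Olfr1509 lie at 16.2 or above and the other 4 members at 13.3 or below, while at the position the subfamilies overlap.

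Olfr1507, the receptor Mor28 that is much used as a model of receptor choice, had downstream maxima of 24.3 on Stringent and 38.1 and 30.3 on the High Coverage arrays. These ranked 45, 6 and 16 among the 1082 named positions with scored probes in that stretch. It was the highest member on all 3 arrays. Olfr1508 had 20.2, 29.4 and 25.8, at ranks 185, 25 and 38. Olfr1509, known as a receptor for (methylthio)methanethiol, a sulphur compound of male mouse urine, had 18.6, 16.2 and 21.1, at ranks 314, 187 and 99. The order Olfr1507, Olfr1508, Olfr1509 was the same on each array. The High Coverage means were 34.2 ± 5.54 (SD, n = 2) for Olfr1507, 27.6 ± 2.58 for Olfr1508 and 18.7 ± 3.45 for Olfr1509, and the paired High Coverage values of these neighbours did not overlap.

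Among the MOR223 receptors the downstream maxima were low and their order was not stable. Olfr1510 had 6.54 on Stringent and 9.12 and 3.79 on the High Coverage arrays. Olfr1511 had 5.64, 13.3 and 4.16, so that it was the highest of the 4 on High Coverage 1 and second lowest on High Coverage 2. Olfr1512 had 3.28, 3.88 and 6.87, and Olfr1513 had 3.89, 3.31 and 5.16. The High Coverage means were 6.46 ± 3.77 (SD, n = 2) for Olfr1510, 8.74 ± 6.48 for Olfr1511, 5.38 ± 2.12 for Olfr1512 and 4.23 ± 1.30 for Olfr1513, and the High Coverage values of these 4 overlapped one another. On Stringent the 4 ranked between 838 and 911 of 1082, where the median over all named positions was 15.7. On that array the 3 MOR244 members lay above this median and the 4 MOR223 members below it. On High Coverage 1 the median over all named positions was 7.62, and Olfr1510 and Olfr1511 lay above it. On High Coverage 2 it was 9.89, and all 4 lay below it. Other positions on chromosome 14 had medians of 9.80, 4.54 and 8.19. They ranged from 0.673 to 23.1 on Stringent, from 2.59 to 45.3 on High Coverage 1 and from 2.53 to 37.6 on High Coverage 2. The top of that range lay below Olfr1507 on Stringent and above it on both High Coverage arrays. All 3 MOR244 members exceeded those medians on each array. The subfamilies also differ in their place along the cluster, and subfamily and distance from the H element cannot be told apart here.

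Most of these maxima stood in a block several kilobases from the position. The exceptions were Olfr1513 on High Coverage 1, with its maximum 1100 bp downstream, Olfr1511 on High Coverage 2, at 1012 bp, and Olfr1512 on High Coverage 1, at 6997 bp, past its block. The main downstream block of a member is here the union, over the arrays, of the overlapping or abutting regions that held its highest Stringent region score. Its near edge lay between 3376 and 6766 bp from the position, with a median of 5848 bp, and it was between 377 and 1039 bp long. For Olfr1507 it ran from 53109697 to 53110736 on chromosome 14, 4718 to 5757 bp downstream. For Olfr1508 it ran from 53082819 to 53083768, 4574 to 5523 bp downstream. For Olfr1509 it ran from 53069986 to 53070522, 6766 to 7302 bp downstream. The 3 MOR223 members farthest from the H element had it at a like distance, with near edges at 5965 bp for Olfr1511, 5848 bp for Olfr1512 and 6158 bp for Olfr1513. Olfr1510 had the shortest distance, 3376 to 3859 bp, from 53030087 to 53030570. The block was called on all 3 arrays for 6 members, and for Olfr1512 on Stringent and High Coverage 2 only.

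**Figure D2:**
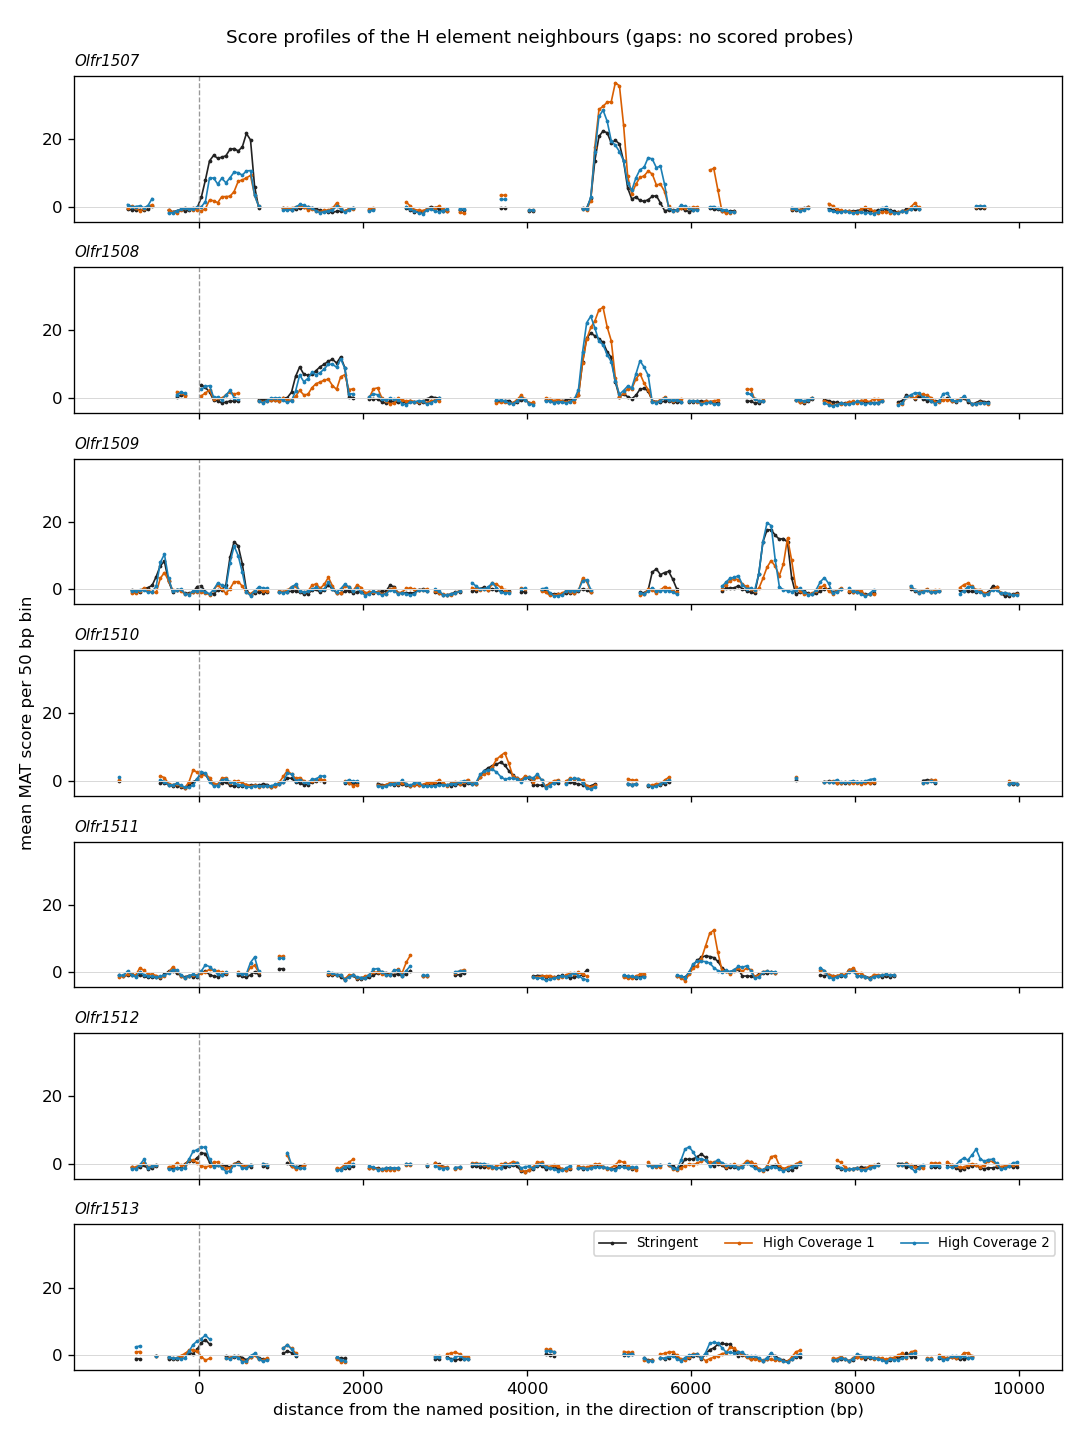
Mean MAT score in 50 bp bins from 1 kb upstream to 10 kb downstream of each member's named position (dashed line), in the direction of transcription, on the 3 arrays; gaps have no scored probes, and all panels share the vertical axis. The tall downstream peaks belong to Olfr1507, Olfr1508 and Olfr1509, and the lower ones of the other members peak at 13.3 or below.

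The far part of the block of Olfr1507 and of Olfr1508 was called differently on the 3 arrays, whose thresholds are not alike. For Olfr1507 the strong Stringent region ended 5222 bp downstream, and past it Stringent had 2 weak regions with scores of 3.32 and 3.40. High Coverage 1 and High Coverage 2 had 1 unbroken region to 5752 and 5757 bp. For Olfr1508 the strong Stringent region ended 5146 bp downstream, followed by a region with a score of 3.13 from 5302 to 5503 bp. In the same stretch High Coverage 1 had a region with a score of 7.94 and High Coverage 2 one with 11.5, both starting 5222 bp downstream. The outermost regions of the Olfr1508 block ended at 5503, 5518 and 5523 bp, so that its full extent was nearly the same on each array. For Olfr1509 the far edge lay at 7286 bp on Stringent, at 7302 bp on High Coverage 1 and at 7112 bp on High Coverage 2, nearest to the position on the last of these.

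At the named position itself the members differed from one another in another order. A called region lay within 100 bp of the position for 5 of 7 members on Stringent, against 61.7% of all named positions. High Coverage 1 had one for 3 members, against 36.4%, and High Coverage 2 for 5, against 43.6%. All 3 arrays had one for the same 3 members, Olfr1507, Olfr1508 and Olfr1510, against 17.3% of all named positions. For Olfr1512 and Olfr1513 the region was called on Stringent and High Coverage 2 and not on High Coverage 1. Olfr1509 and Olfr1511 had none on any array. The members' shares were 71.4% on Stringent and High Coverage 2 and 42.9% on High Coverage 1 and on all 3 arrays together. On Stringent and High Coverage 1 the share was near the background. It was higher than the background on High Coverage 2 and on all 3 arrays together, and with 7 members no test was run. The High Coverage 1 count, which bounds that on all 3 arrays, fell to 1 when a region had to overlap the window by 50 bp. The sources used here do not say how the authors set the positions, and signal there may have been used.

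On Stringent and High Coverage 2 the region at the position of Olfr1507 was the longest and highest-scoring of the members. That was the region of Olfr1510 on High Coverage 1, 185 bp long with a score of 4.32. The highest score of Olfr1507 within 100 bp was 10.5 on Stringent and 0.631 and 4.77 on the High Coverage arrays. These values stood at the 96.8, 83.3 and 96.7 percentiles. The score kept rising past that window: the Stringent region ran from 53114708 to 53115489, or from -35 to 746 bp relative to the position, with a region score of 22.8. It was 781 bp long, and 14 of the 669 named positions with a Stringent region had one as long, itself included, against a median of 315 bp. On High Coverage 2 it was 707 bp, with 4 of 473 as long and a median of 209 bp. On High Coverage 1 the region at the position was 133 bp, with 343 of 395 as long and a median of 187 bp. On High Coverage 2 the region began 28 bp downstream and ended at 735 bp, with a score of 11.4. On High Coverage 1 a first region from 63 to 196 bp scored 2.62 and a second from 197 to 740 bp scored 9.61. The 3′ end of the block thus lay within 735 to 746 bp on all arrays, and its 5′ end varied.

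Olfr1508 had a moderate signal at the position and a second block just over 1 kb downstream. The highest score within 100 bp was 3.99 on Stringent and 2.36 and 4.09 on the High Coverage arrays, from 13 scored probes, with percentiles of 94.3, 95.1 and 96.2. The Stringent region there ran from -29 to 153 bp. The second block lay 1076 to 1925 bp downstream, from 53086417 to 53087266, with region scores of 12.9, 7.48 and 12.4. All 3 of its blocks were called on all 3 arrays. No scored probe lay in the 150 bp upstream of the position.

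The position of Olfr1509 lay between 2 blocks and had neither. Within 100 bp the highest score was 1.41 on Stringent and -0.419 and 0.179 on the High Coverage arrays, from 35 scored probes. The percentiles were 92.0, 53.1 and 73.3, and the High Coverage mean of 63.2 ± 14.2 (SD, n = 2) was the lowest of the members with this window. With 50 bp on each side it was 60.3, and Olfr1507 was lower at 59.6. With 500 bp on each side, which takes in blocks beside the position, Olfr1509 rose to 98.7 and only Olfr1507 was higher, at 98.9. A block upstream, from -605 to -316 bp (53062615 to 53062904), had region scores of 8.96 on Stringent and 5.37 and 11.1 on the High Coverage arrays. A second block 281 to 613 bp downstream, from 53063501 to 53063833, had 14.6, 2.95 and 13.7. A region between 1000 and 200 bp upstream was called at 1.47% of all named positions on Stringent and at 18.3% and 15.9% on the High Coverage arrays. All 3 arrays had one at 8 of 1085 positions, or 0.737%, and Olfr1509 was the only member among them. The upstream stretch was chosen after this block was seen. Further downstream, Stringent alone had a region at 5438 to 5828 bp with a score of 6.40, the 1 segment of all members that was called on Stringent only.

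**Figure D3:**
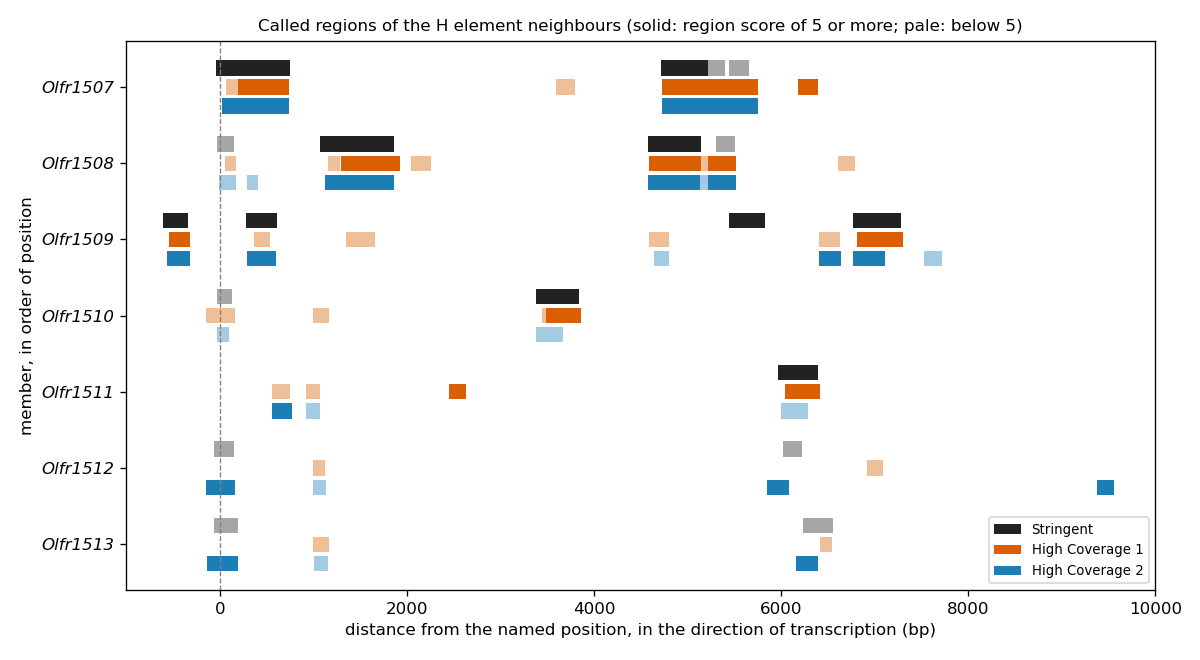
Regions called by the authors from 1 kb upstream to 10 kb downstream of each member's position, 1 bar per region and 1 row per array, at their distance from the position; solid bars have a region score of 5 or more and pale bars a lower one. Olfr1509 has bars on both sides of its position and none at it, and Olfr1511 has none at its position.

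In the MOR223 receptors the signal at the position was moderate and varied between the High Coverage arrays. Olfr1510 was the most even, with highest scores of 3.32, 4.32 and 3.36 at the 93.9, 97.6 and 95.4 percentiles. Olfr1512 had 3.56 on Stringent and 1.26 and 5.51 on the High Coverage arrays, and Olfr1513 had 4.67, 1.99 and 6.05. The percentiles were 94.0, 90.1 and 97.2 for Olfr1512 and 94.6, 93.9 and 97.4 for Olfr1513, highest on High Coverage 2 and lowest on High Coverage 1. Olfr1511 had 1.11, 0.679 and 2.71, at the 91.3, 84.0 and 94.3 percentiles. Its nearest called regions were those 559 to 767 bp downstream, with scores of 2.72 on High Coverage 1 and 5.31 on High Coverage 2 and none on Stringent.

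Scores rose across the position in the direction of transcription on Stringent and High Coverage 2, but for most members not on High Coverage 1. The mean score over 150 bp was higher on the downstream side for 6 of the 6 members with probes on both sides on Stringent, against 94.5% of named positions. It did for 6 of 6 on High Coverage 2, against 74.6%, and for 2 of 6, Olfr1507 and Olfr1511, on High Coverage 1, against 70.3%. For Olfr1507 the difference was 8.90 on Stringent and 0.932 and 4.0 on the High Coverage arrays, the largest of the 6 on Stringent and High Coverage 2. Olfr1511 had a larger rise on High Coverage 1, of 1.07. For Olfr1513 it was 2.92, -2.38 and 2.36, and for Olfr1512 it was 1.02, -1.57 and 0.649. For Olfr1509 it was 0.053, -0.156 and 0.085, close to 0 on each array.

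All 4 MOR223 receptors had a further segment about 1 kb downstream of the position, on the product without nesting. It began 995 bp downstream in Olfr1510 and Olfr1512, 993 bp in Olfr1513 and 918 bp in Olfr1511. Both High Coverage arrays called it in Olfr1511, Olfr1512 and Olfr1513, and High Coverage 1 alone called it in Olfr1510. Stringent called it in none of the 4.

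**Figure D4:**
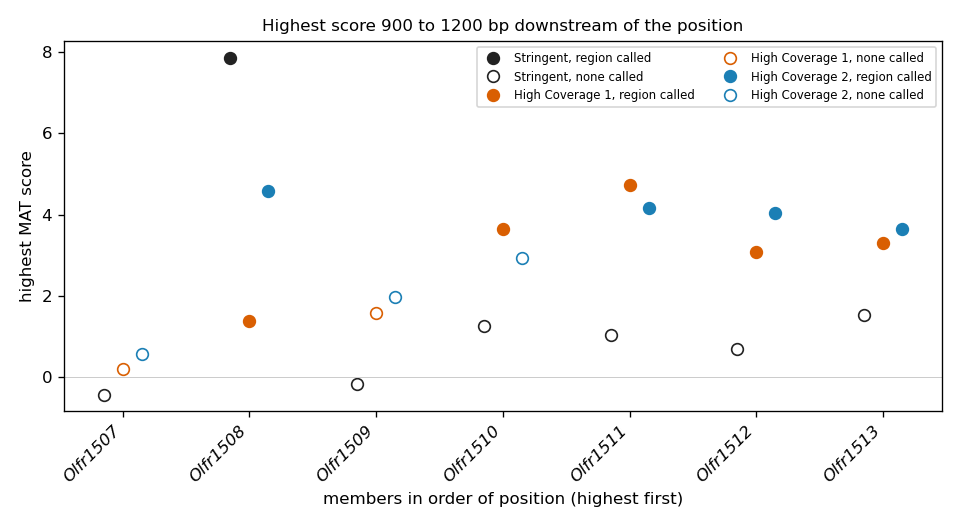
Highest MAT score from 900 to 1200 bp downstream of each member's position on each array, with filled points where a called region reaches into that stretch and open points where none does. The High Coverage points of Olfr1510 to Olfr1513 lie between 2.92 and 4.73 and their Stringent points between 0.706 and 1.54; the filled points of Olfr1508 belong to the start of its second block.

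The highest scores from 900 to 1200 bp downstream bear the same split. Olfr1510 had 1.27 on Stringent and 3.66 and 2.92 on the High Coverage arrays. Olfr1511 had 1.04, 4.73 and 4.16, Olfr1512 had 0.706, 3.07 and 4.04, and Olfr1513 had 1.54, 3.31 and 3.65. As percentiles among the probes of each array these were 91.7, 97.1 and 94.7 for Olfr1510, 91.1, 97.8 and 96.2 for Olfr1511, 89.9, 96.5 and 96.1 for Olfr1512, and 92.2, 96.8 and 95.7 for Olfr1513. In each of the 4 both High Coverage percentiles lay above the Stringent percentile. The same order held at lower percentiles for Olfr1507, at 68.7, 75.0 and 80.8, and for Olfr1509, at 78.7, 92.1 and 92.1, where no region was called. Olfr1508 broke it, at 95.9, 91.0 and 96.6, with High Coverage 1 below Stringent. The order is therefore not particular to the MOR223 members, and how often it holds over all named positions was not counted. For Olfr1507 and Olfr1509 no value in that stretch exceeded 1.98. Over all named positions a region reached into it at 23.6% on High Coverage 1, 22.9% on High Coverage 2, 22.4% on Stringent and 14.6% on both High Coverage arrays. The stretch was chosen after the segments were seen, and how far the product of 1 MOR223 receptor binds probes of another was not measured here. On High Coverage 1 this segment was also the highest point between 1 and 10 kb for Olfr1513, and on High Coverage 2 for Olfr1511.

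Counted together, the authors' regions in the 7 windows numbered 19 on Stringent and 35 and 27 on the High Coverage arrays. The median per window was 2, 5 and 3, against 3, 4 and 4 over all named positions. Joined over the arrays, the members' regions made 33 segments, and segments were not counted for other positions. Of these, 12 were called on all 3 arrays, 9 on 2 and 12 on 1. The 3 MOR244 members held 8 of the 12 found on every array: 2 in Olfr1507, 3 in Olfr1508 and 3 in Olfr1509. Olfr1510 had 2, Olfr1511 and Olfr1513 had 1 each, and Olfr1512 had 0. The members also differed in segments of any kind. These numbered 4 in Olfr1507, 6 in Olfr1508 and 8 in Olfr1509, and 3, 4, 5 and 3 in Olfr1510, Olfr1511, Olfr1512 and Olfr1513. Of the 12 segments on a single array, 8 were on High Coverage 1, 3 on High Coverage 2 and 1 on Stringent. One of the 8 was a region 6181 to 6397 bp downstream of Olfr1507, past its main block, with a score of 13.4.

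The 6 genes listed beside the P element, another receptor enhancer, which lies on chromosome 7, are the set most like these genes. All 6 had a region at the position on Stringent and 2 on each High Coverage array, against 5, 3 and 5 of the 7 H element neighbours. Their highest scores at the position had medians of 12.4 on Stringent and 1.31 and 1.62 on the High Coverage arrays. For the H element neighbours these were 3.56, 1.26 and 4.09, and over all named positions 4.15, 1.44 and 2.06. Between 1 and 10 kb downstream the P element neighbours had median maxima of 17.2, 12.98 and 17.4, against 6.54, 13.3 and 6.87 for the H element neighbours. Their highest maxima were 29.6, 19.8 and 32.6, above those of Olfr1507 on Stringent and High Coverage 2 and below it on High Coverage 1. The 31 other positions on chromosome 14 had a region at 14 positions on Stringent and at 18 and 16 on the High Coverage arrays. No test of these differences was run.

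By ranks of the score at the position over the 3 arrays, the closest named position outside the list was Olfr457 on chromosome 6 for Olfr1507, at a distance of 5.75 rank points in percent. It was Olfr1287 on chromosome 2 for Olfr1508 (8.08) and Olfr1084 on chromosome 2 for Olfr1509 (1.40). For the MOR223 members it was Olfr706 on chromosome 7 for Olfr1510 (5.05), Olfr143 on chromosome 9 for Olfr1511 (6.11), Olfr1406 on chromosome 1 for Olfr1512 (10.6) and Olfr702 on chromosome 7 for Olfr1513 (4.86). Likeness over 3 arrays is a weak measure, and Olfr1509 and Olfr1084 were alike in standing low on all 3.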

How the data were processed

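The authors deposited a MAT score for each probe position. Per the file headers, each file was made from a single array and no control, with MAT's bandwidth at 50, its maximum gap at 30 and its minimum at 5 probes. The regions and their scores are also the authors', called on each array at a false discovery rate of 0, per the file headers. The submitters' processing notes give the build as mm9. Coordinates are printed as the files give them. Abutting regions end at 1 base and start at the next, so they were read as closed intervals. A score of 0 on all 3 arrays (5.42% of 2313448 probes) was read as no score.

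From these, highest and mean scores, percentiles, overlaps of at least 1 bp and joined segments were computed with Python 3.11.15, numpy 2.4.6 and pandas 2.3.3, and the steps were tested on simulated data. The rule for named genes took all 7 members in order of position, and for each the 1 closest other position by rank distance over the arrays. The members, lists and windows were chosen with earlier results of these data known. The alternatives changed the windows, the overlaps, the score summary or the region list, or left out 1 High Coverage array. RefSeq tables are of build GRCm38.p6 and served for names, record lengths, sequence and the spacing of record starts only.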

Additional observations from a re-analysis of the deposited data

Results flagged for a closer look

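Both of the called regions found in the cluster outside the 7 windows were on High Coverage 1. One lay from 53035432 to 53035566 on chromosome 14, 1486 to 1620 bp upstream of Olfr1510, with a score of 2.91. The other lay from 53168080 to 53168204, in the 100 kb beyond Olfr1507 on the side of the H element, with a score of 2.65. Both are signals in stretches that no comparison used, and the authors' threshold on that array was 2.53. In those 100 kb there were 625 scored probes, and neither Stringent nor High Coverage 2 had a called region there.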

How the results depend on the processing

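Of the 50 alternative values of the main results, 39 stayed within 1.5 times the count or within the High Coverage spread, and 11 moved. The count of members with a region at the position on High Coverage 1 fell from 3 to 1 when the region had to span the position, when it had to overlap the window by 50 bp, and with the 3608 highest-scoring regions only. With that shorter list the regions in the windows on High Coverage 1 numbered 22, not 35. With 5 kb downstream in place of 10 kb, Stringent had 11 regions, not 19. On High Coverage 1 the members with a higher mean downstream numbered 1 with 50 bp on each side and 4 with 300 bp. With 300 bp all 7 members had probes on both sides, and those with a higher mean downstream numbered 5 on Stringent and 7 on High Coverage 2. These 2 counts are among the values that stayed. The median percentile of the members on High Coverage 1, 90.1, was 95.5 with a window of 500 bp and 66.3 with the mean score, and on High Coverage 2 it was 96.2 and became 86.4 with the mean score. A region on both High Coverage arrays was found for 3 members, and with 1 of these arrays left out the counts were 3 to 5. Of the values of single members, 99 stayed and 13 moved, among them the High Coverage percentile of Olfr1509, which became 98.7 with 500 bp and 42.4 with the mean score. No paired analysis was possible because Stringent is a single array with no replicate number in its label. The choices on the downstream stretch were added after seeing the data. Sequence on build mm9 was not used here, and Stringent values have no replicate.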

Other observations

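High Coverage 1 stood apart from High Coverage 2 at several members. At the position, the High Coverage percentiles differed most for Olfr1509, at 53.1 and 73.3, and for Olfr1507, at 83.3 and 96.7, and least for Olfr1508, at 95.1 and 96.2. In the block just downstream of the Olfr1509 position, High Coverage 1 had a region score of 2.95 where Stringent had 14.6 and High Coverage 2 had 13.7.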
